A study of Homo sapiens with 6 samples.

Results

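The IFIT and IFITM families comprise 8 genes here, IFIT1, IFIT2, IFIT3, IFIT5, IFITM1, IFITM2, IFITM3 and IFITM10, selected by gene family name. They were found in 7 of 61695 loci of the authors' deposited count tables and in 25 of 274669 transcripts of the deposited isoform table. The cells were EndoC-βH1, a human line with beta cell features that was derived from fetal pancreas with SV40 large T antigen, and messenger RNA was measured in 3 libraries of cells exposed to cytokines and 3 control libraries. The exposed cells received IL-1β at 5 ng/ml, TNF-α at 10 ng/ml, IFN-γ at 50 ng/ml and IL-17 at 100 ng/ml together for 24 h, and all cells were kept in serum-free medium with 11 mM glucose after 24 h of adherence. The labels call the controls cells before exposure, whereas the extraction protocol describes cells without cytokines for the same time, so exposure and time in culture cannot be told apart from these labels. Everything comes from this single cell line, and the labels name no separate cultures, so the authors' p-values cover only how these 6 libraries vary, possibly for technical reasons.

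IFIT proteins are RNA-binding proteins of the cytoplasm built from tetratricopeptide repeats. They hold on to RNA ends that mark a transcript as foreign and keep it from being translated. IFITM proteins are small membrane proteins that hinder the fusion of enveloped viruses with the cell membrane or with endosomes. Both families are classical interferon-stimulated genes, and beta cells are a known target of enteroviruses. Most IFIT and IFITM genes carry interferon-stimulated response elements close to their start, a DNA sequence bound by interferon regulatory factors.

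Promoter sequences are shown for the members that had one, and all of these promoters held matches to the core of this element. Whether the matches bear on the levels of these genes was not tested. The RefSeq table (GRCh38.p14) held 6 promoters of 5 members, IFIT1, IFIT3 with a pair of starts, IFIT5, IFITM1 and IFITM3, while IFIT2, IFITM2 and IFITM10 are named only. Each line runs 5′ to 3′ on the gene's strand, from position -170 to position 10, where the start is position 1. Capitals mark matches on either strand to GAAA, any 2 bases and GAAA again, the core of the interferon-stimulated response element, which reads TTTC, any 2 bases and TTTC on the other strand.
IFIT3 upstream start, chr10:89327827-89328006, plus strand: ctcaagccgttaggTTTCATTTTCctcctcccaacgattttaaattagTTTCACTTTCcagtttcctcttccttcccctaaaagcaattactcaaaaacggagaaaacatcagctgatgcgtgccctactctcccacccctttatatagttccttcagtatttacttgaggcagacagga
IFIT3 downstream start, chr10:89332359-89332538, plus strand: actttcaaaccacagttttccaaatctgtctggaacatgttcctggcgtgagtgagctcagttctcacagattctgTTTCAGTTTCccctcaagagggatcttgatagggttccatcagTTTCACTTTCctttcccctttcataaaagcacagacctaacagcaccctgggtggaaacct
IFIT1, chr10:89392453-89392632, plus strand: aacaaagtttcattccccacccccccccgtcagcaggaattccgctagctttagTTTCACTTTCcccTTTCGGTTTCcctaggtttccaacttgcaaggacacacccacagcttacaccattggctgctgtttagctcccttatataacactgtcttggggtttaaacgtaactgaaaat
IFIT5, chr10:89414398-89414577, plus strand: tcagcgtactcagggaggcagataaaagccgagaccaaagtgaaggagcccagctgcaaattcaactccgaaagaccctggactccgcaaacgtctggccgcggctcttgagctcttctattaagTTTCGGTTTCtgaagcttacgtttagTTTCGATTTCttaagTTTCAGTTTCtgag
IFITM1, chr11:313870-314049, plus strand: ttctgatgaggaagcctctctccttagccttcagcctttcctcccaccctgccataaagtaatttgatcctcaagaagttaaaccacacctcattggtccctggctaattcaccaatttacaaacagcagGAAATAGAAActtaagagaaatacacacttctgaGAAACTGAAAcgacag
IFITM3, chr11:320851-321030, minus strand: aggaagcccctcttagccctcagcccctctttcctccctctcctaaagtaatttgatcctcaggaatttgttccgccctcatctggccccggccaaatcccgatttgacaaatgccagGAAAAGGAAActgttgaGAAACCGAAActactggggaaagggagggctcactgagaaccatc
All 6 windows of 300 bases held at least 2 matches to this core. Among all 35116 promoters of the table, 3.57% held at least 1 match and 0.259% at least 2. In both IFIT3 promoters and in IFIT1 the copy TTTCACTTTC recurred, between positions -122 and -113 and between -51 and -42 at the 2 IFIT3 starts and between -116 and -107 in IFIT1. IFIT5 held 3 matches, the last of them from -4 to 6 across the start. In IFITM1 and IFITM3 the matches lay on the gene's strand and between -52 and 4. The IFITM1 match GAAACTGAAA ran from -6 to 4 and overlapped a match to TTCNNNGAA (-12 to -4), the letters of the gamma-activated site, which 7.66% of all promoters held on either strand. None of the other 5 windows held that match. A match to the NF-κB consensus was found in 1 window, that of IFITM3 from -250 to -241, against 11.3% of all promoters. A match describes letters only, and binding was not measured.

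Of the 7 member loci, 6 were higher in cytokine-exposed than in control cells at an adjusted p under 0.05 of the authors' DESeq test, and 1, the locus shared by IFITM10, did not pass. Across all 30206 tested loci of the deposited count tables, 18.0% were called higher, and 32.9% of those with a mean of at least 1000 counts. The median log2 fold change of the 7 loci was 4.39, beside 0.05 over all tested loci of the deposited tables. The deposited tables give values per group and no value per library, so levels below are group values and errors are the authors' standard errors (SE) of the fold change. A library held 40881975 normalized counts on average, that is read counts after division by size factors. No source used here gives the strand setting of the counting, and in GENCODE release 44 (hg38) the gene LIPA overlaps IFIT1, IFIT2 and IFIT3 on the opposite strand.

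The cells expressed beta cell markers. In the deposited FPKM table, 11 of 13 were over 1 FPKM in control, and their summed level was 1416 FPKM with cytokines and 1703 FPKM in control. The other 2, INS and CHGA, are listed at 0 there because the tool skipped them for too much data. In the deposited count table CHGA had 296413 normalized counts with cytokines and 136426 in control, and the locus that INS shares with IGF2 and other genes had 38102 with cytokines and 56569 in control. Of 25 markers of other islet, exocrine, endothelial, stromal and blood cells, 7 were over 1 FPKM in control, and the summed level was 480 FPKM with cytokines and 487 FPKM in control in the deposited table. Most of that sum was the locus of CD68, which holds 9 symbols including EIF4A1, at 336 FPKM with cytokines and 362 FPKM in control in the deposited table. The other 24 markers summed to 144 FPKM with cytokines and 125 FPKM in control, so the direction turns without that locus. Among these, the duct marker KRT19 was at 62.0 FPKM with cytokines and 49.4 FPKM in control, and the alpha cell marker IRX2 at 42.0 FPKM with cytokines and 33.2 FPKM in control, in the deposited table. The acinar marker CPA1 was at 25.5 FPKM with cytokines and 33.7 FPKM in control, and the stromal marker COL1A1 at 7.52 FPKM with cytokines and 3.21 FPKM in control, in the deposited table. SST and CD14, of delta cells and monocytes, were at 3.97 and 1.13 FPKM with cytokines and 3.15 and 1.29 FPKM in control in the deposited table. The leukocyte marker PTPRC was at 0.00761 FPKM with cytokines and 0.0274 FPKM in control, and CD3E, PRSS1 and CELA3A were listed at 0 in both groups of the deposited table. The part of these markers in the results was not tested. In bulk RNA, a change in the number of cells that express a gene and a change in RNA per cell cannot be told apart.

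**Figure D1:**
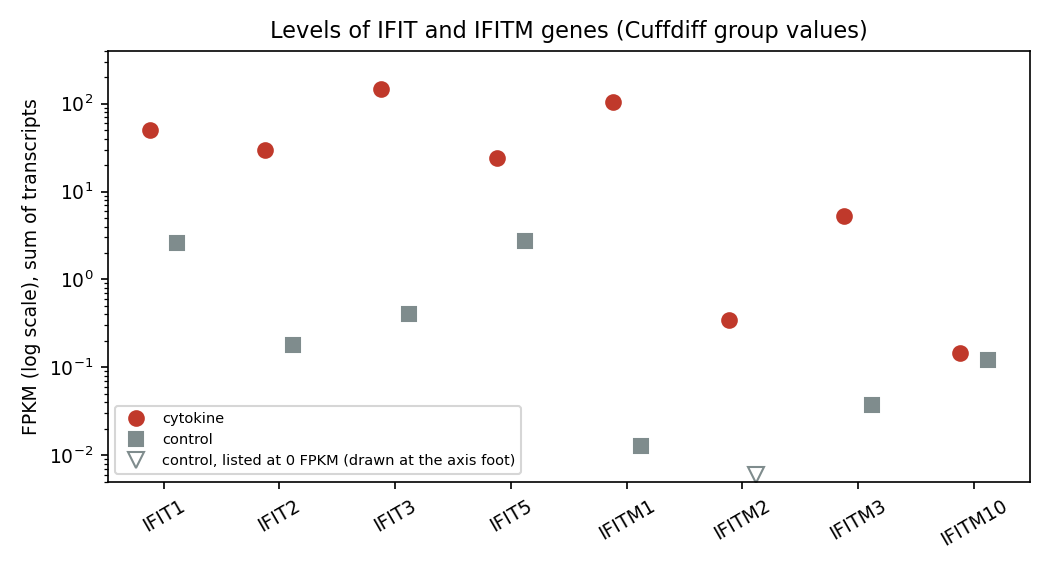
FPKM of the 8 genes, each the sum of its transcripts in the authors' deposited isoform table, on a log axis, with cytokine-exposed cells as circles, control cells as squares and the control value of IFITM2, listed at 0, as an open triangle at the axis floor (group values, no error available). IFIT3 and IFITM1 are the highest with cytokines, at 147 and 104 FPKM, and IFITM10 lies at about the same level in both groups.

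IFIT3, the partner that stabilises IFIT1 on RNA, became the most abundant member. The gene (chromosome 10, 89327307 to 89377473, plus strand, in GENCODE release 44, as for the other genes unless said) had a mean of 15209 normalized counts with cytokines and 43.6 in control in the authors' deposited count table. The log2 fold change was 8.45 ± 0.13 (SE) with an adjusted p listed at 0 in the deposited table, below what the format holds. In the deposited FPKM table IFIT3 stood at 147 FPKM with cytokines and 0.409 FPKM in control. That level placed it 543rd of 34741 genes over 0 FPKM with cytokines, and 18185th of 33901 in control. Control cells thus held the transcript at a low level, and exposed cells at a level in the top 1.56% of genes.

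IFIT2 (chromosome 10, 89283694 to 89309271, plus strand), which binds AU-rich RNA and pairs with IFIT3, was the next in size of change. It had 3800 normalized counts with cytokines and 23.2 in control in the deposited count table, a log2 fold change of 7.35 ± 0.17 (SE; adjusted p listed at 0). Its FPKM in the deposited table was 29.4 with cytokines and 0.179 in control. The FPKM ratio of 164 and the fold change of 164 from counts gave the same size in the authors' deposited tables.

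IFIT1 and IFIT5 had the higher control levels and the smaller changes. IFIT1 (chromosome 10, 89392546 to 89406487, plus strand), which recognises capped RNA without ribose methylation, had 3982 normalized counts with cytokines and 224 in control in the deposited count table. Its log2 fold change was 4.15 ± 0.07 (SE; adjusted p listed at 0) in the deposited table, and its FPKM was 50.5 with cytokines and 2.60 in control. IFIT5 (chromosome 10, 89414568 to 89421605, plus strand), which binds RNA with a triphosphate end, had 3787 normalized counts with cytokines and 465 in control in the deposited count table. The log2 fold change of IFIT5 was 3.03 ± 0.05 (SE; adjusted p listed at 0) in the deposited table, at 23.8 FPKM with cytokines and 2.71 FPKM in control. All 4 IFIT genes also passed in the authors' second test, by Cuffdiff, each with q = 0.000232, where 17.8% of 21865 tested genes were called higher.

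**Figure D2:**
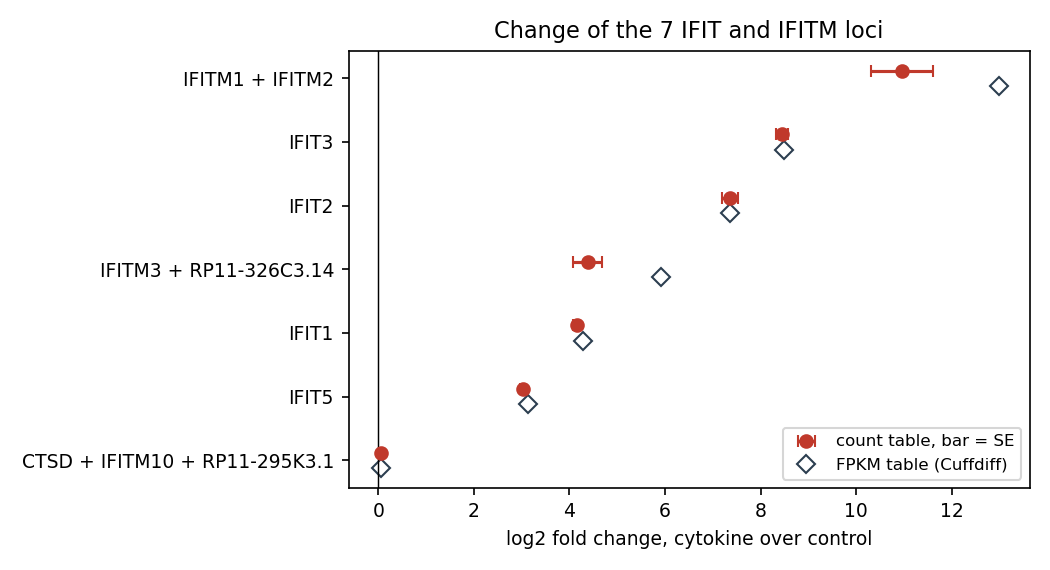
Log2 fold change of cytokine over control for the 7 member loci, with circles and SE bars from the authors' deposited count table and diamonds from the deposited FPKM table, which gives no error. For each of the 4 IFIT loci the values from the 2 tables lie close together, while the FPKM table puts the IFITM1 and IFITM2 locus at 12.98 against 10.96 and the IFITM3 locus at 5.91 against 4.39.

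The 4 IFIT genes differed from each other in the size of their rise by many times the authors' SE. The log2 fold change of IFIT3 exceeded that of IFIT2 by 1.09 ± 0.21, that of IFIT1 by 4.30 ± 0.14 and that of IFIT5 by 5.42 ± 0.14, from the deposited table. IFIT2 exceeded IFIT1 by 3.20 ± 0.19 and IFIT1 exceeded IFIT5 by 1.12 ± 0.09 on the same log2 scale. These errors combine the SE of both genes as if independent, and the covariance between genes of 1 library is not in the deposited tables, so no p is given.

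The order of FPKM levels within the IFIT family changed in part, with IFIT3 first with cytokines, IFIT5 first in control and IFIT1 second in both. In control IFIT5 and IFIT1 were close, and the shares carry no error. With cytokines IFIT3 held 58.7% of the summed IFIT level of 251 FPKM, IFIT1 20.1%, IFIT2 11.7% and IFIT5 9.49%. In control the sum was 5.90 FPKM, of which IFIT5 held 46.0%, IFIT1 44.1%, IFIT3 6.93% and IFIT2 3.03%, all from the authors' deposited FPKM table. The family sum was therefore 42.5-fold higher with cytokines on the FPKM scale and 35.4-fold higher in normalized counts. Per kilobase of the leading transcript in normalized counts, IFIT3 was again first with cytokines (64.6%) and IFIT5 again first in control (59.3%). The order of the lower members with cytokines was not the same on that scale, where IFIT1 came to 9.66%, under the 15.9% of IFIT2 and the 9.81% of IFIT5. The lengths were those of GENCODE release 44, which holds later versions of the leading IFIT1, IFIT2 and IFIT5 transcripts than the deposited ones. For IFIT1 that length was 4302 bases, and the deposited length is not known here. Both the quantification and the length differ between the scales, and the cause was not tested.

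**Figure D3:**
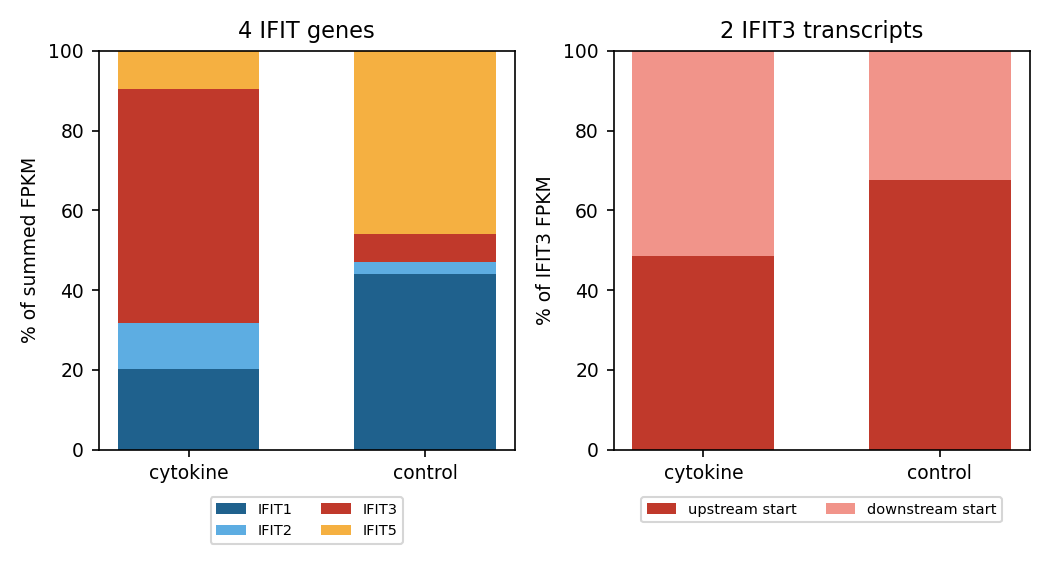
Left, the share in percent of each IFIT gene in the summed FPKM of the 4 genes, and right, the share of the 2 IFIT3 transcripts in IFIT3, in cytokine-exposed and control cells, from the authors' deposited FPKM tables. IFIT3 holds 58.7% of the IFIT sum with cytokines and 6.93% in control.

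Single transcripts carried most of IFIT1, IFIT2 and IFIT5, whereas IFIT3 was split. ENST00000371804.3 held 98.1% of IFIT1 with cytokines and 94.9% in control in the deposited isoform table, and ENST00000371795.4 was the only IFIT5 transcript listed. For IFIT2, ENST00000611722.1 held 91.8% with cytokines, and all of the control level. In GENCODE release 44 that transcript starts at 89305962, inside the span of ENST00000371826.3, which starts at 89302046. The annotated coding length there is 598 bases for ENST00000611722.1 and 1416 bases for ENST00000371826.3. The latter was at 2.41 FPKM with cytokines and was listed at 0 FPKM in control in the deposited table (q = 0.453).

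The IFIT3 transcripts start at 89327997 (ENST00000371818.7) and 89332484 (ENST00000371811.4), next to the promoters printed above. The downstream start lies 45 bases from that of RefSeq. The downstream transcript was at 75.9 FPKM with cytokines and 0.133 FPKM in control in the deposited table. The upstream transcript was at 71.4 FPKM with cytokines and 0.276 FPKM in control in the deposited table. The downstream transcript thus held 51.5% of IFIT3 with cytokines and 32.4% in control. Neither passed the threshold on its own (q = 0.458 downstream and q = 0.109 upstream in the authors' deposited table), and the shift in shares has no error here. Of the 25 member transcripts 10 were tested and 3 were past the threshold, the leading transcripts of IFIT1, IFIT2 and IFIT5, each with q = 0.000833, where 5.17% of 95649 tested transcripts of the deposited table were called higher.

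The largest change of both families fell on the locus that holds IFITM1 and IFITM2. IFITM1 acts mainly at the cell surface and IFITM2 in endosomes. The locus (chromosome 11, 307630 to 315272 in the deposited table) had 3176 normalized counts with cytokines and 1.59 in control in the authors' deposited count table. The log2 fold change was 10.96 ± 0.65 (SE; adjusted p = 4.16e-63) in the authors' deposited count tables, the 13th largest of 30206 tested loci. Only 4.77 normalized counts over the 3 control libraries stand behind the control level, so the size of the fold is imprecise. In the authors' deposited FPKM table the locus was at 104 FPKM with cytokines and 0.0129 FPKM in control and did not pass (log2 fold change 12.98, p = 0.0413, q = 0.102).

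Nearly all of this signal was assigned to IFITM1. In the deposited isoform table its transcript ENST00000408968.3, which starts at 314040 at the promoter printed above, was at 103 FPKM with cytokines and 5.80e-07 FPKM in control. This transcript did not pass the threshold in the authors' Cuffdiff test (q = 0.661). Another IFITM1 transcript, ENST00000528780.4, held the control level of 0.0129 FPKM and was listed at 0 FPKM with cytokines in the deposited table. The 6 IFITM2 transcripts summed to 0.342 FPKM with cytokines, 0.328% of the locus, and were listed at 0 FPKM in control in the deposited table, none of them tested. IFITM1 ranked 843rd of 34741 genes with cytokines by its summed level in the deposited table.

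IFITM3, which acts in endosomes against influenza and other enveloped viruses, rose at a low level. The gene lies on chromosome 11 from 319676 to 329475, minus strand, and its locus, which runs from 318621 to 330122 in the deposited table and includes RP11-326C3.14, had 205 normalized counts with cytokines and 9.82 in control in the deposited count table. The log2 fold change was 4.39 ± 0.30 (SE; adjusted p = 1.97e-46) in the authors' deposited count table and 5.91 (q = 0.000858) in their FPKM table, at 5.40 FPKM with cytokines and 0.0900 FPKM in control. Of the control level, 58.8% lay on an assembled transcript without a gene name, and the IFITM3 transcript ENST00000399808.4 itself was at 5.20 FPKM with cytokines and 0.0371 FPKM in control in the deposited table (q = 0.564). With cytokines IFITM1 thus made up 94.8% of a summed IFITM level of 109.5 FPKM, IFITM3 4.75% and IFITM2 0.312% in the deposited table.

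The IFITM genes are similar enough to share reads. Over aligned coding bases of the GENCODE release 44 transcripts, IFITM2 and IFITM3 were 93.9% identical, IFITM1 and IFITM3 90.1% and IFITM1 and IFITM2 86.8%. Of all stretches of 50 bases in the IFITM3 transcript, 17.4% occurred unchanged in IFITM1 and 9.07% in IFITM2. No source used here says how reads that match several copies were counted, so the levels of IFITM2 and IFITM3 are uncertain. Among the IFIT genes the coding identity was 64.6% to 73.8%, with 0% of stretches of 50 bases shared in any pair.

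IFITM10 stood apart. The gene (chromosome 11, 1732406 to 1750595, minus strand) was counted in a locus with CTSD, a lysosomal protease, and RP11-295K3.1. This locus had 11126 normalized counts with cytokines and 10749 in control in the authors' deposited count table, a log2 fold change of 0.05 ± 0.02 (SE; adjusted p = 0.101). IFITM10 transcripts made up 0.0957% of the locus with cytokines and 0.0845% in control, at 0.145 FPKM and 0.122 FPKM in the authors' deposited isoform table, and none was tested. CTSD transcripts made up 98.8% of the FPKM of the locus with cytokines and 98.7% in control in the deposited table. The fold change of the locus therefore does not give that of IFITM10, for which no test is available.

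**Figure D4:**
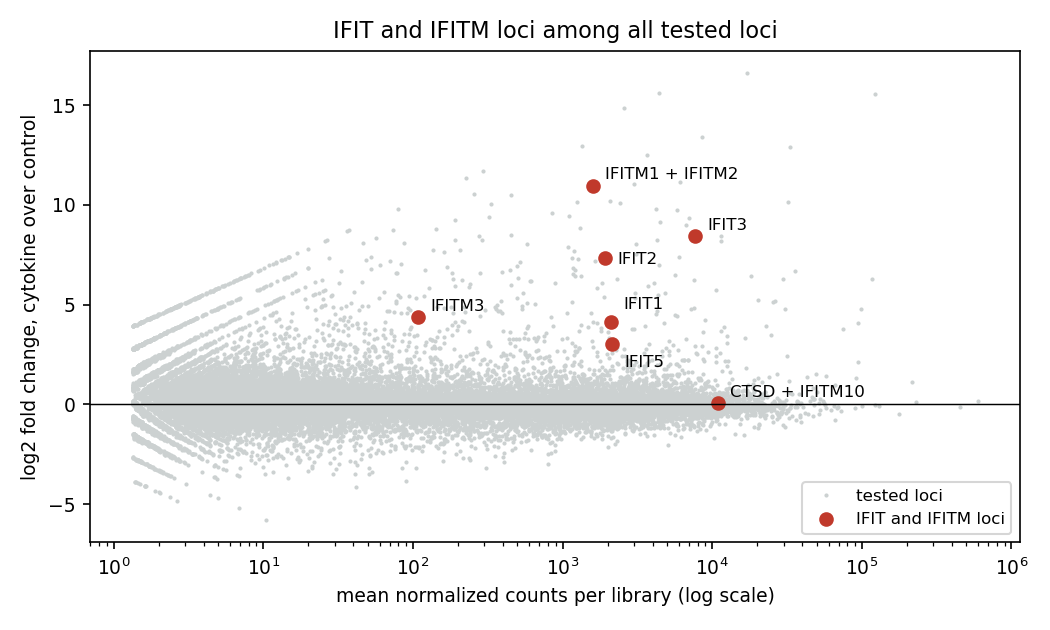
Each dot is a tested locus of the authors' deposited count tables by its mean normalized counts per library (log axis) and its log2 fold change of cytokine over control, with the 7 member loci as large circles. The 6 loci past the threshold lie above the bulk of loci, and the locus of CTSD and IFITM10 lies on the zero line.

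Other loci of both families carried few reads. IFIT1B (chromosome 10, 89378056 to 89385205), a relative of IFIT1 inside the cluster, had 6.80 normalized counts with cytokines and was listed at 0 FPKM in control in the deposited tables. The log2 fold change of IFIT1B was 5.32 ± 1.47 (SE, adjusted p = 0.00106 in the authors' deposited count table), and Cuffdiff did not test it. Against a floor of 3 normalized counts over the control group the ratio was 6.80-fold, which leaves out the error of so few counts. The pseudogene IFIT1P1 had 2.72 normalized counts with cytokines and 2.47 in control (adjusted p = 0.955 in the authors' table), and the bone-specific IFITM5 had 0 counted reads in the deposited table.

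The neighbours of the clusters were compared, from a list of 31 genes, 25 tested loci of which gave 9 higher, 6 lower and 10 not past the threshold in the deposited count table. Beside these counts, 18.0% of all tested loci were called higher and 19.7% lower. Many of the neighbour loci had a mean of at least 1000 counts, and 32.9% of all such loci were called higher. The median log2 fold change of the neighbours was -0.00, beside 0.05 over all tested loci of the deposited tables. The list includes IFIT1B and the locus of CTSD and IFITM10, and without these 8 of 23 loci rose, 6 fell and 9 did not pass. Around the IFIT cluster all 7 tested loci passed, 5 higher, IFIT1B among them, and 2 lower, which leaves 4 of 6 higher without IFIT1B. On 1 side lie CH25H, FAS with STAMBPL1, and ACTA2. CH25H, the enzyme that makes the antiviral 25-hydroxycholesterol, had 33.5 normalized counts with cytokines and was listed at 0 FPKM in control in the deposited tables. Its log2 fold change was 7.58 ± 1.24 (SE), and the ratio against the floor was 33.5-fold without an error. FAS, a death receptor counted with STAMBPL1, rose by 2.33 ± 0.08 and ACTA2, a smooth muscle actin, by 3.51 ± 0.76 (log2 ± SE) in the deposited table. ACTA2 had only 21.5 normalized counts with cytokines and 1.89 in control. The locus of LIPA, the overlapping lysosomal lipase, and SLC16A12 rose by 1.05 ± 0.03, named after its value was seen. PANK1 and KIF20B on the other side, named after their values were seen, fell, with log2 fold changes of -0.28 ± 0.06 and -0.77 ± 0.05 in the deposited count table. In the authors' Cuffdiff table PANK1 stood at -0.19 (q = 0.698) and did not pass.

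Around the IFITM cluster 3 of 13 tested loci rose, 3 fell and 7 did not pass in the deposited table. ANO9, a membrane scramblase and channel family member, rose by 2.22 ± 0.04 in the deposited table. PSMD13, RIC8A and SIGIRR, a negative regulator of interleukin-1 receptor signalling, had log2 fold changes of 0.03 ± 0.03, -0.05 ± 0.04 and -0.00 ± 0.05 in the deposited count table, none of which passed. Of the 4 tested loci near IFITM10 other than its own locus with CTSD, 1 rose, 1 fell and 2 did not pass, among them TNNI2 at -2.77 ± 1.79 (adjusted p = 0.251) in the authors' deposited table.

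**Figure D5:**
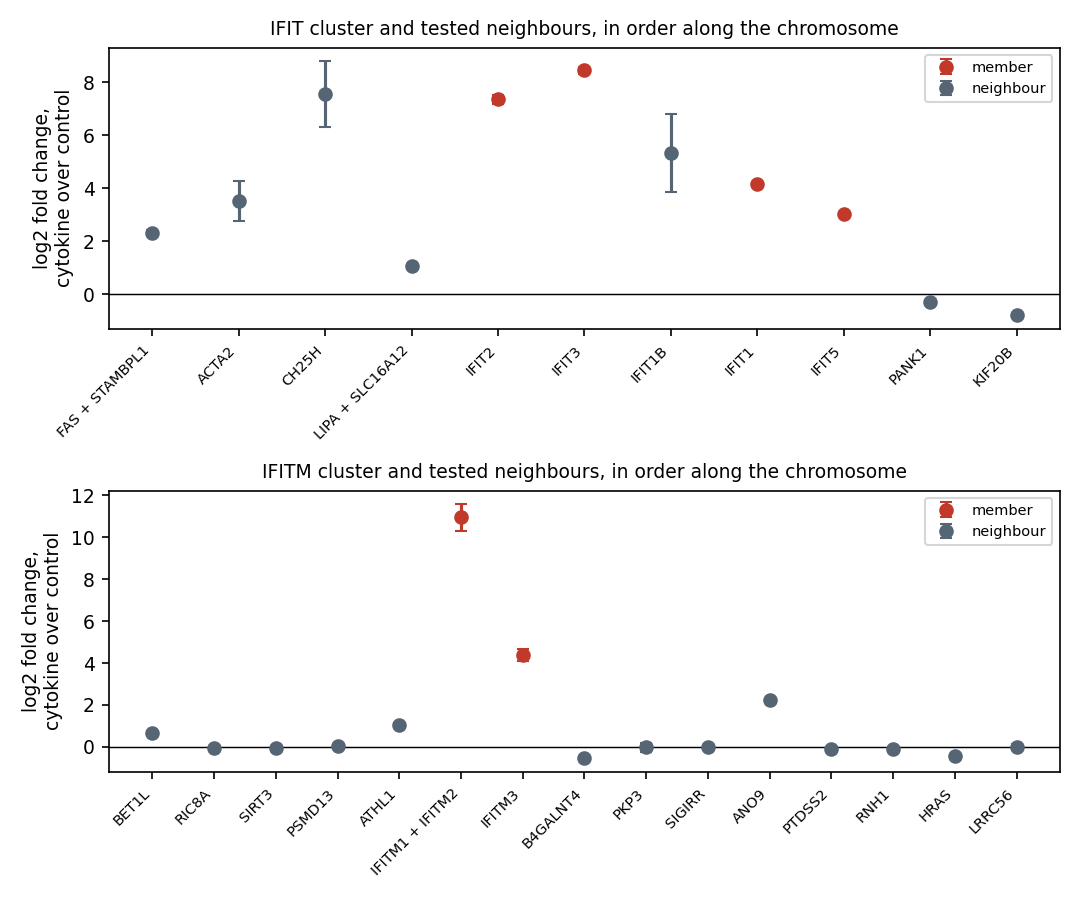
Log2 fold change of cytokine over control (bars are SE) from the authors' deposited count table, in order along the chromosome, for the IFIT cluster above and the IFITM cluster below, with members and tested neighbours in different colours. In the count table all 7 loci listed around the IFIT cluster, IFIT1B among them, pass the threshold in either direction, while 7 of 13 near the IFITM cluster do not. With Cuffdiff PANK1 did not pass (q = 0.698) and IFIT1B was not tested.

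The signalling chain that leads to both families was read from a list of 30 genes, 29 of them tested. Of these 24 rose and 2 fell in the deposited count table, where 18.0% of tested loci were called higher and 19.7% lower, with a list median of 1.92 beside 0.05 over all tested loci. Most loci of this list had a mean of at least 1000 counts, and 32.9% of all such loci were called higher. Among receptors and kinases, IFNGR1 stood at -0.08 ± 0.05 (log2 ± SE, adjusted p = 0.275) in the authors' deposited table, and JAK2, the kinase attached to the second chain of the IFN-γ receptor, was named after its value was seen, at 3.91 ± 0.05. Among transcription factors, IRF1 rose by 6.67 ± 0.03 to 70366 normalized counts with cytokines, against 692 in control, in the deposited table. STAT2 and IRF9, transcription factors of the type I interferon response named after their values were seen, also rose. The log2 fold change of STAT2 was 2.52 ± 0.03, and the locus that IRF9 shares with RNF31 had 11372 normalized counts with cytokines and 2468 in control in the deposited count table. The feedback inhibitors SOCS1 and SOCS3 rose by 6.06 ± 0.12 and 6.61 ± 0.67, and the sensor of double-stranded RNA TLR3 by 6.58 ± 0.67 in the deposited table. SOCS3 and TLR3 had 155 and 152 normalized counts with cytokines and 1.59 each in control, so the size of these folds is imprecise. SOCS1 had 3610 with cytokines and 54.1 in control.

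Interferon genes themselves were close to the limit of counting. IFNL3, a type III interferon, had 4.42 normalized counts with cytokines and was listed at 0 FPKM in control in the authors' deposited tables. The log2 fold change of IFNL3 was 4.72 ± 1.61 (SE, adjusted p = 0.0105 in the authors' deposited count table), and Cuffdiff did not test it. Against the floor the ratio was 4.42-fold, which leaves out the error of so few counts. IFNB1, the beta interferon, had 2.52 normalized counts with cytokines and 0.165 in control (adjusted p = 0.0773) in the authors' deposited count table. MAVS, the adaptor of cytosolic RNA sensing, stood at -0.04 ± 0.03 (adjusted p = 0.471) in the authors' deposited table. The 2 genes that fell, named after their values were seen, were PIAS1, a SUMO ligase, at -0.24 ± 0.04 and TYK2, a kinase of the type I receptor, at -0.07 ± 0.03 in the authors' deposited table, and TYK2 stood at 0.13 (q = 0.408) in their Cuffdiff table.

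Genes whose products modify or work with IFIT and IFITM proteins were called in both directions. Of 17 tested loci from a list of 16 genes, 7 rose and 7 fell in the deposited count table, with a median of 0.04. Across all tested loci 18.0% were called higher and 19.7% lower, 37.7% in either direction. Most of the listed loci had a mean of at least 1000 counts, and 32.9% of all such loci were called higher. SETD7, a lysine methyltransferase that acts on IFITM3, rose by 1.75 ± 0.05 in the deposited table. CMTR1, the cap methyltransferase whose mark shields RNA from IFIT1, rose by 0.64 ± 0.03, and the kinase TBK1 by 0.63 ± 0.05 in the authors' deposited table. DDX58, the RNA sensor RIG-I counted with TOPORS, rose by 0.99 ± 0.04 in the deposited table. RNMT, the methyltransferase of the cap guanine, stood at -0.33 ± 0.05, and EIF3E, a subunit of the initiation factor that IFIT1 and IFIT2 bind, at -0.40 ± 0.03 in the deposited table. STT3A, counted with CHEK1, and a second locus of VAPA stood at 0.04 ± 0.02 and 0.04 ± 0.53, and neither passed in the deposited count table.

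Among loci of a single symbol with a mean count within 2-fold, the log2 fold changes nearest to that of IFIT3 were those of CXCL11 (8.45 ± 0.10), NLRC5 (8.21 ± 0.09) and CTSS (9.32 ± 0.18), out of 1928 loci of the deposited count table. The values nearest to the IFITM1 and IFITM2 locus were those of UBE2L6 (11.04 ± 0.48), CD38 (10.13 ± 0.55) and SAMD9L (10.08 ± 0.39), out of 4197 loci of the authors' deposited table. This likeness rests on a single contrast of 2 groups and on the same 6 libraries.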

How the data were processed

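The submitters' processing notes name the build hg38 and, among tools, bcl2fastq, FastQC (0.10.1), StringTie, the aligner STAR (2.5.2b), the test DESeq and Cuffdiff (2.2.1). No source used here gives the read counter, strand setting or annotation. Per the labels' protocols, poly(A) RNA was selected and libraries were directional. Per the file headers, the count tables give as signal 1 mean of normalized counts for each locus over all 6 libraries. Their deposited log2 values are the change with cytokines relative to control, with its SE. The deposited score is the ratio of these in the count tables and Cuffdiff's own statistic elsewhere. Deposited p-values and q-values come from the DESeq and Cuffdiff tests that the authors ran. The FPKM columns were deposited as 1 value for each group, from Cuffdiff, whose smallest p was 5e-05.

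The tables hold the finished comparison, so the authors' adjusted p at 0.05 was used. It equals a Benjamini-Hochberg adjustment over the 30206 tested loci of both count tables within 1.53e-15. The mean of each group follows from the deposited overall mean and the fold change, with 3 libraries a group, and a floor of 3 normalized counts over the control group was used where control was listed at 0 FPKM. The calculations were tested on simulated data. The members and lists were chosen with earlier results of these data known. Named genes are all members and, of each list, the 6 tested genes with the largest change and at most 4 not past the threshold, except where said and for 1 gene of the signalling list that is not reported here. Of 31 neighbour genes, 30 matched a locus. Promoters came from RefSeq, and genes and transcripts from GENCODE release 44, matched to deposited transcripts without the version. The protein comparison planned was replaced by coding bases, since protein sequences were not used here. The calculations used Biopython 1.88, numpy 2.4.6 and pandas 2.3.3 under Python 3.11.15, and the plots matplotlib 3.10.9.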

Additional observations from a re-analysis of the deposited data

How the results depend on the processing

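The count of 6 member loci past the threshold was 5 in the Cuffdiff table and 6 at a threshold of 0.01, with adjustment over every locus with a p, and among loci of at least 10 counts. Among loci of 1 gene symbol it was 4 of the 4 such members. The log2 fold changes of the IFIT and IFITM3 loci kept their direction and their side of the threshold with Cuffdiff and after re-centring on abundant loci, which moves all values by 0.06. The IFITM1 and IFITM2 locus was not past the threshold with Cuffdiff (12.98, q = 0.102), and its control level of 4.77 normalized counts over 3 libraries limits its precision. The locus of CTSD and IFITM10 passed after re-centring (0.11, adjusted p = 6.43e-05 from the authors' SE). With a pseudocount of 1 FPKM the log2 fold changes in FPKM came to 4.69 for IFIT2, 6.72 for IFIT3, 3.84 for IFIT1, 2.74 for IFIT5, 6.70 for IFITM1 and IFITM2 and 2.55 for IFITM3, which came to 7.13 over its named transcripts alone. Over transcripts of at least 1 FPKM in either group, the leading transcript held 100% of IFIT1 in control. For IFITM1 that share came to 31.2%, but from control levels of only 5.80e-07 and 1.28e-06 FPKM, so it describes no expressed transcript. The setting leaves out ENST00000528780.4, which held the IFITM1 control level of 0.0129 FPKM. Fewer loci fell with other settings. Of the signalling list 1 fell at a threshold of 0.01 and 0 with Cuffdiff (0 at an unadjusted p under 0.05), 3 neighbours fell with Cuffdiff, and 4 cofactors fell with Cuffdiff, an alternative added after the data were seen, as were the scale per kilobase and the neighbour counts without IFIT1B and the locus of CTSD and IFITM10 (8 higher and 6 lower). The cause of these changes was not tested. No paired analysis was possible because the deposited tables carry no value per library, and leaving out each replicate was not run for the same reason.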
